A study of Capra hircus with 4 samples.

Results

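Expression of the core circadian clock genes was compared between mid and early anagen in stem cells of the secondary hair follicles, which grow the cashmere undercoat, cultured from goats (Capra hircus). The genes are CLOCK, NPAS2, PER1, PER2, PER3, CRY1, CRY2, NR1D1, NR1D2 and DBP. They were chosen by name as parts of the clock loop, with earlier results of these data known. All 10 were found by symbol among the 20326 genes of each deposited table. ARNTL, another part of that loop, is not among the 10 and is given beside them. The cells were isolated from dorsal skin in October, at mid anagen, or in April, at early anagen, the growth phase of the hair cycle, and were cultured before RNA was extracted. Each phase has 1 female and 1 male library, described as biological replicates. Every mid anagen library is from October and every early anagen library from April. Phase therefore cannot be told apart from month, season or anything else that differed between the collections. The hour at which cells were collected, the time in culture, any step to synchronise the cells, and the ages and number of animals are not stated in the labels. Because nothing ties the 2 libraries of a phase to a stated number of separate animals, p-values measure the spread between these libraries only.

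The clock is a feedback loop of transcription that runs with a period of about a day in nearly every mammalian cell, skin included. CLOCK, or its relative NPAS2, pairs with BMAL1 (the product of ARNTL) and switches on the PER and CRY genes, whose proteins return to the nucleus and block that pair. A further loop is formed by NR1D1 and NR1D2, nuclear receptors known as REV-ERB alpha and beta, which repress ARNTL, while DBP carries the rhythm to output genes. In mouse skin, clock genes are known to vary with the stage of the hair cycle as well as with the time of day. Cells in a dish drift out of step with each other unless a serum, steroid or temperature signal resets them, so a bulk level averages over cells at different points of the cycle.

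Values are deposited abundances per gene, taken here as normalised for transcript length since kallisto is the quantifier the submitters list, so levels of different genes can be set side by side. Their read depth is unknown. Library totals ran from 844960 to 1186966, and mid anagen libraries had the lower totals. The keratinocyte genes KRT5 and KRT14 were high throughout, at 7281 and 9234 for KRT5 in the mid anagen female and male against 15892 and 18092 in the early anagen female and male. Among the other listed keratinocyte markers, ITGB4 was lower at mid anagen, at 592 and 605 against 718 and 721 in the same order. TP63, ITGA6, COL17A1 and DSG3 overlapped between phases. The follicle stem cell markers LHX2, SOX9, TCF7L1, NFATC1 and LGR5 reached the filter, CD34 and LGR6 did not, and KRT15 was not matched by symbol. Each of those that reached it was higher in both mid anagen libraries than in either early anagen library. Their list summed to 202 and 227 in the mid anagen female and male, against 117 and 93.3 in the early anagen female and male. LHX2 was at 31.7 and 32.1 against 9.54 and 6.94 in the same order (limma adjusted p = 0.0431). Of 12 fibroblast and dermal papilla markers, 8 reached the filter used for testing, and the summed level of all 12 was 303 and 118 in the mid anagen female and male, against 1.21 and 4.32 in the early anagen female and male. None of these 12 was at 0 in all libraries. The defining markers DCT of melanocytes, CDH5 of endothelium and PTPRC of immune cells were listed at 0 in every library, while other markers of those lists were not. The summed immune level was 17.5 and 11.8 in the mid anagen female and male, against 7.63 and 6.98 in the early anagen female and male. CD14 was at 12.6 and 8.52 against 3.28 and 2.49, and no other matched immune marker separated the phases. CD68 was at 4.41 and 2.40 in the mid anagen female and male and 3.90 and 3.56 in the early anagen female and male. For nerve and Schwann cells, of whose 5 markers S100B alone reached the filter, the sum was 21.4 and 22.2 in the mid anagen female and male, against 8.65 and 5.49 in the early anagen female and male. The endothelial sum was 4.66 and 6.12 in the mid anagen female and male, against 1.41 and 0.823 in the early anagen female and male, mostly from ERG. The other endothelial markers were under the filter. Of these, PECAM1 was lower at mid anagen, at 0.0664 and 0.0777 against 0.313 and 0.278, while KDR, TEK and VWF were higher. The melanocyte sum overlapped between phases, at 6.62 and 7.34 in the mid anagen female and male and 5.80 and 7.08 in the early anagen female and male. The follicle stem cell and fibroblast markers, KRT5, KRT14 and ITGB4 but not the other keratinocyte markers, and the single genes CD14, S100B and ERG therefore move with phase beside every comparison of phases below. Their part in those results was not tested. In bulk RNA, fewer cells of a type and less RNA per cell cannot be told apart.

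In the fit to all 4 libraries on log2(value + 1), PER1 showed the largest difference between phases among the 10 genes, and it was higher at mid anagen. PER1 stayed first with pseudocounts of 0.1 and 5. With 0.1 its lead was small, at a log2 fold change of 1.00 against 0.99 for NPAS2, a low gene. Without the mid anagen male, the log2 fold changes of PER2 and DBP, 0.75 and 0.81, exceeded the 0.72 of PER1. CLOCK, NPAS2, CRY2 and NR1D2 were also higher in both mid anagen libraries than in either early anagen library, and CRY1 and NR1D1 were lower in both as deposited, though not after rescaling to a common total. PER2, PER3 and DBP overlapped between phases. None of the 10 differences passed the threshold, an adjusted p of 0.05 over all 12486 genes tested with limma on log2(value + 1), where 0.304% of genes passed (0.224% higher and 0.0801% lower at mid anagen). The plot of abundance by library shows each value.

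**Figure D1:**
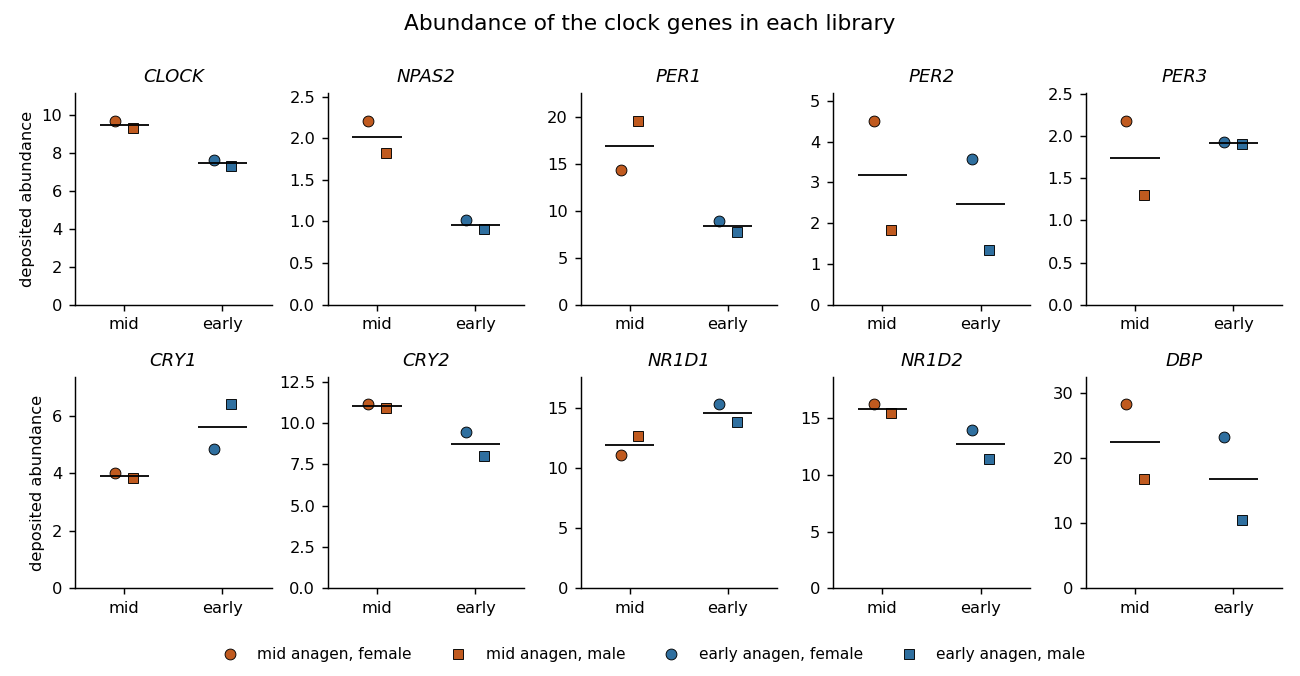
Deposited abundance of each clock gene (vertical axes, linear, each starting at 0) in the mid anagen libraries, left, and the early anagen libraries, right. Circles are female and squares male libraries, and the bar is the mean of 2 libraries. PER1 is higher in both mid anagen libraries than in either early anagen library, while PER2 and DBP separate by sex within each phase.

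CLOCK is the DNA-binding partner of BMAL1 in most tissues. Its abundance was 9.69 and 9.30 in the mid anagen female and male, against 7.65 and 7.33 in the early anagen female and male. The groups did not overlap, and the difference was log2 0.31 in both pairs. The log2 fold change of mid over early anagen was 0.31 (SE 0.14, 95% interval -0.06 to 0.67, limma adjusted p = 0.231, n = 2 per phase). NPAS2, which can stand in for CLOCK, was far less abundant, at 2.21 and 1.82 in the mid anagen female and male against 1.01 and 0.909 in the early anagen female and male. Both mid anagen values lay above both early anagen values, with a log2 fold change of 0.62 (SE 0.20, interval 0.11 to 1.13, adjusted p = 0.134). Both genes span a long stretch of the genome, and with the trend of expression on gene span removed their log2 fold changes were 0.077 for CLOCK (adjusted p = 0.777, from 0.0857 to 0.777 over 12 alternatives) and 0.32 for NPAS2 (adjusted p = 0.373, from 0.0696 to 0.529 over 11 alternatives). The value for NPAS2, a low gene, was 0.99 with a pseudocount of 0.1 and 0.23 with one of 5. An annotated pseudogene lies within the span of NPAS2 and another within that of CRY1 in the RefSeq table, and whether reads were shared with them was not tested.

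The period genes encode the repressors that pair with the cryptochromes. PER1, which also answers quickly to steroid, cAMP and serum signals, stood at 14.3 and 19.5 in the mid anagen female and male, against 8.94 and 7.71 in the early anagen female and male. The mid anagen male was the highest library and the groups did not overlap. The log2 fold change was 0.93 (SE 0.20, interval 0.44 to 1.42, limma adjusted p = 0.0785), and 0.62 in the female pair against 1.24 in the male pair. Ranked within a library, PER1 was at or above 41.9% and 51.5% of tested genes in the mid anagen female and male and 30.8% and 29.3% in the early anagen female and male. Its adjusted p crossed the threshold after rescaling to a common total (0.0493), where 5.19% of all tested genes passed. It also did so with sex as a second term (0.0315), where 14.3% passed, and was 0.145 with no filter. The log2 fold change of PER1 ran from 0.71 to 1.24 over 12 alternatives, and was 1.14 without the mid anagen female.

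PER2, another repressor of the family, was at 4.51 and 1.83 in the mid anagen female and male and at 3.58 and 1.35 in the early anagen female and male, so the female libraries were high and the male libraries low in both phases. The log2 fold change between phases was 0.27 (SE 0.45, interval -0.85 to 1.38, limma adjusted p = 0.730), and 0.27 between the females as between the males. Leaving out the early anagen male or the mid anagen female, which leaves the sexes unequal between phases, gave -0.21. PER3, the period gene that is dispensable for rhythm in mice, was at 2.18 and 1.30 in the mid anagen female and male and at 1.93 and 1.91 in the early anagen female and male. Its early anagen values lay between the mid anagen values, with a log2 fold change of -0.11 (interval -0.70 to 0.48, adjusted p = 0.786) that became 0.10 after rescaling to a common total and 0.12 without the mid anagen male. PER1 made up 68.1% and 86.2% of the summed abundance of the 3 period genes in the mid anagen female and male. In the early anagen female and male its share was 61.9% and 70.3%, so the phases overlapped.

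The cryptochromes, the main repressors of CLOCK and BMAL1, pointed in opposite directions. CRY1 was at 4.00 and 3.83 in the mid anagen female and male, against 4.83 and 6.38 in the early anagen female and male. The early anagen male was highest, and the log2 fold change was -0.42 (SE 0.19, interval -0.89 to 0.05, limma adjusted p = 0.214). CRY2 was at 11.1 and 10.9 in the mid anagen female and male, against 9.46 and 7.99 in the early anagen female and male. The mid anagen values were both higher, with a log2 fold change of 0.31 (SE 0.15, interval -0.08 to 0.70, adjusted p = 0.254).

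The REV-ERB pair likewise differed in direction. NR1D1 was at 11.2 and 12.7 in the mid anagen female and male, against 15.3 and 13.9 in the early anagen female and male. Both mid anagen values were lower, with a log2 fold change of -0.27 (SE 0.15, interval -0.65 to 0.11, limma adjusted p = 0.294). NR1D2 was at 16.2 and 15.4 in the mid anagen female and male, against 14.0 and 11.4 in the early anagen female and male. Both mid anagen values were higher, with a log2 fold change of 0.30 (SE 0.16, interval -0.10 to 0.71, adjusted p = 0.273). ARNTL, the gene that both receptors repress and the partner of CLOCK, was at 5.75 and 6.63 in the mid anagen female and male, against 8.75 and 7.01 in the early anagen female and male. Its log2 fold change was -0.30 (SE 0.18, interval -0.75 to 0.14, adjusted p = 0.317), so as deposited it was lower at mid anagen in both pairs, as was NR1D1.

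DBP, a PAR bZIP transcription factor that CLOCK and BMAL1 switch on directly, had the highest mean of the 10 genes in both phases. Its abundance was 28.2 and 16.9 in the mid anagen female and male, against 23.2 and 10.5 in the early anagen female and male. As with PER2, the female libraries were high and the phases overlapped. The log2 fold change between phases was 0.45 (SE 0.41, interval -0.57 to 1.48, limma adjusted p = 0.503), with 0.27 between the females and 0.63 between the males. Leaving out the early anagen male, which leaves the sexes unequal between phases, gave -0.081.

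**Figure D2:**
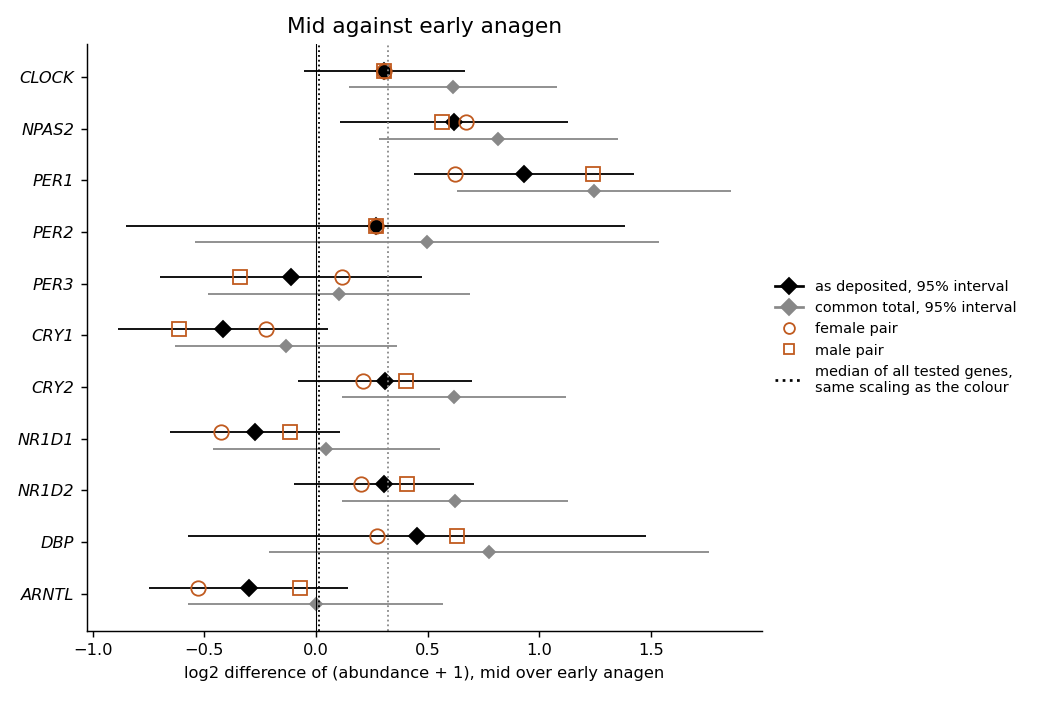
Log2 difference of abundance + 1, mid over early anagen (horizontal axis), for the 10 clock genes and ARNTL. Black diamonds with 95% intervals are the deposited values, grey ones the values rescaled to a common total, open circles the female pair, open squares the male pair, and dotted lines the median of all tested genes under each scaling. Under the deposited scaling the intervals of PER1 and NPAS2 lie above 0 (that of NPAS2 with the span trend left in), and rescaling shifts every gene to the right.

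Counted together, 7 of the 10 genes were higher at mid anagen in both pairs, 2 were lower in both and PER3 differed between pairs. Over all tested genes the shares were 39.3% higher in both pairs, 37.1% lower in both and 23.5% opposite. Libraries did not overlap between phases for 5 genes with higher and 2 with lower values at mid anagen, against 31.5% and 30.9% of all tested genes, or 62.3% in either direction. The 7 of 10 genes without overlap in either direction are thus near the background. The 7 of 10 higher in both pairs are above the 39.3% of all tested genes, a difference that was not tested. The 10 were chosen with earlier results of these data known. In the limma fit 2 of 10 genes, NPAS2 and PER1, had an unadjusted p under 0.05, against 27.9% of all tested genes. The median log2 fold change was 0.30 over the 10 genes and 0.01 over all tested genes. All 10 genes passed the filter, which kept genes that reached 1 in 2 or more libraries.

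Whether a value lay above or below 0 depended in part on how libraries were scaled. When each library was rescaled to a common total, the median over all tested genes became 0.32 (log2) and that over the 10 clock genes 0.62. The 5 genes with higher mid anagen values (CLOCK, NPAS2, PER1, CRY2 and NR1D2) still did not overlap, while 57.2% of all tested genes were then higher without overlap. CRY1, NR1D1 and ARNTL then overlapped between phases, and the log2 fold changes were -0.14 for CRY1, 0.046 for NR1D1 and -0.0017 for ARNTL. All 3 lay below the median of all tested genes under either scaling, since rescaling shifts every gene upward together. Limma called 38 genes as deposited, 28 higher and 10 lower, and 648 after rescaling (5.19% of genes), 565 higher and 83 lower, of which PER1 was the only 1 of the 10 clock genes, at a log2 fold change of 1.24.

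Ratios between genes of the same library do not depend on that scaling. Of 9 ratios computed, 6 did not overlap between phases, a share near the 62.3% of single genes that did not. CRY2 exceeded CRY1 by a ratio of 2.78 and 2.85 in the mid anagen female and male, against 1.96 and 1.25 in the early anagen female and male. The NR1D2 to NR1D1 ratio was 1.45 and 1.21 in the mid anagen female and male, against 0.911 and 0.818 in the early anagen female and male, so the more abundant REV-ERB gene was NR1D2 at mid and NR1D1 at early anagen. The CLOCK to NPAS2 ratio was lower at mid anagen, at 4.39 and 5.10 in the female and male, against 7.55 and 8.07 in the early anagen female and male. The PER1 to CRY1 ratio was 3.58 and 5.11 in the mid anagen female and male, against 1.85 and 1.21 in the early anagen female and male. The PER1 to PER2 ratio overlapped between phases, at 3.17 and 10.7 in the mid anagen female and male and 2.50 and 5.70 in the early anagen female and male, as did the DBP to ARNTL ratio, at 4.91 and 2.54 in the mid anagen female and male and 2.65 and 1.5 in the early anagen female and male. The NR1D1 to ARNTL ratio varied least, at 1.94 and 1.92 in the mid anagen female and male and 1.75 and 1.98 in the early anagen female and male. An exact two-sided permutation test of 2 against 2 libraries cannot go below p = 0.333, which is the value reached by each of the ratios that did not overlap, and the p for NR1D1 to ARNTL was 1. None can pass a threshold of 0.05 by this test.

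**Figure D3:**
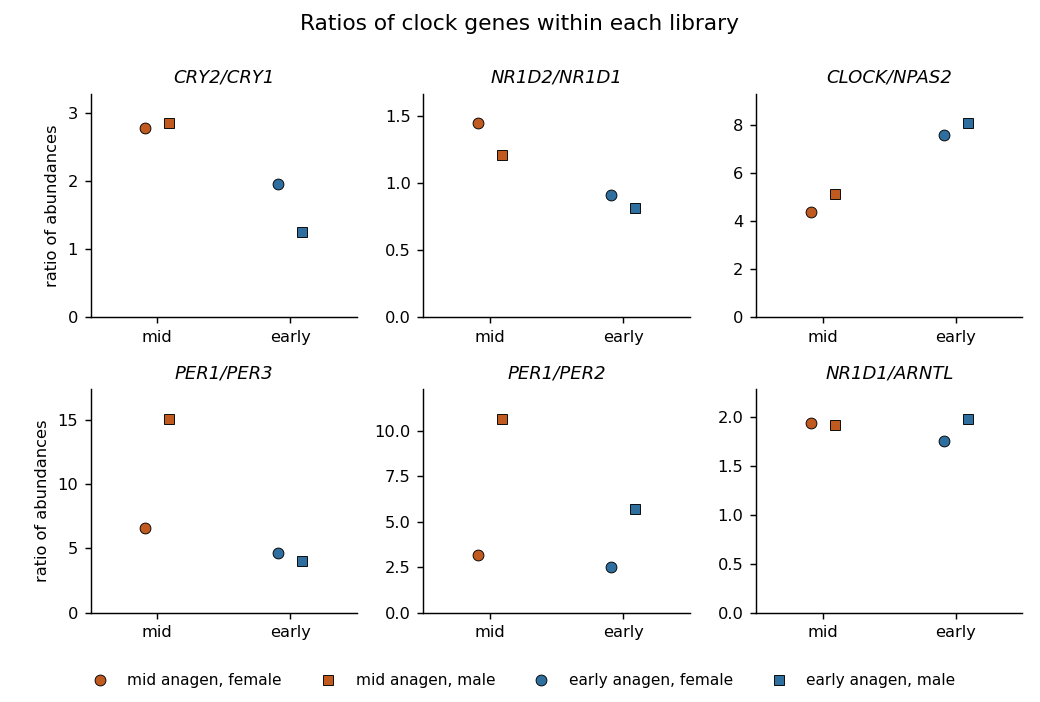
Ratio of deposited abundances of 2 genes within a library (vertical axes, linear, starting at 0), mid anagen left and early anagen right. Circles are female and squares male libraries. The ratios of CRY2 to CRY1 and of NR1D2 to NR1D1 are higher at mid anagen, that of CLOCK to NPAS2 is lower, and that of NR1D1 to ARNTL lies between 1.75 and 1.98 in all 4 libraries.

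The order of abundance differed in part between phases. At mid anagen the means ran from DBP (22.5 ± 8.04), PER1 (16.9 ± 3.71), NR1D2 (15.8 ± 0.537), NR1D1 (11.9 ± 1.12), CRY2 (11.0 ± 0.147), CLOCK (9.50 ± 0.278), CRY1 (3.91 ± 0.120), PER2 (3.17 ± 1.89) and NPAS2 (2.02 ± 0.273) to PER3 (1.74 ± 0.625) (SD, n = 2). At early anagen they ran from DBP (16.9 ± 8.92), NR1D1 (14.6 ± 1.01), NR1D2 (12.7 ± 1.83), CRY2 (8.73 ± 1.04), PER1 (8.33 ± 0.864), CLOCK (7.49 ± 0.227), CRY1 (5.61 ± 1.10), PER2 (2.46 ± 1.57) and PER3 (1.92 ± 0.0181) to NPAS2 (0.961 ± 0.0742) (SD, n = 2). PER1 stood above both REV-ERB genes in mean at mid anagen and below both, and below CRY2, at early anagen. DBP, PER1 and NR1D2 overlapped in turn at mid anagen, as did CRY1, PER2, NPAS2 and PER3, and each of the other neighbours was apart. At early anagen DBP overlapped NR1D1 and NR1D1 overlapped NR1D2, CRY2 overlapped PER1, and PER2 overlapped PER3, while the other neighbours were apart.

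Sex was the other factor that the libraries carry, and it set apart DBP and PER2. PER2 was at 1.83 and 1.35 in the mid and early anagen male libraries, against 4.51 and 3.58 in the mid and early anagen female libraries. Every male value lay below every female value, and the log2 fold change of male over female, with phase in the fit, was -0.96 (SE 0.18, interval -1.39 to -0.54, limma adjusted p = 0.111, n = 2 per sex). The difference was -0.96 at mid and -0.96 at early anagen. DBP was at 16.9 and 10.5 in the mid and early anagen male libraries, against 28.2 and 23.2 in the mid and early anagen female libraries. Again no male value reached a female value, with a log2 fold change of -0.89 (SE 0.16, interval -1.28 to -0.50, adjusted p = 0.108). Neither passed over all genes, where 0.144% did, and both passed after rescaling to a common total, with adjusted p-values of 0.0158 for PER2 and 0.0142 for DBP, where 3.17% of genes passed. Over the alternatives the adjusted p ran from 0.0158 to 1.00 for PER2 and from 0.0142 to 1.00 for DBP, the highest being the fit without phase. With 1 library of each sex per phase, sex cannot be told apart from the individual source of the cells.

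Including PER3, at 1.30 and 1.91 in the mid and early anagen male libraries against 2.18 and 1.93 in the mid and early anagen female libraries, 3 of the 10 genes were lower in both male than in both female libraries, and 0 were higher. Over all tested genes 11.9% were lower in this way and 12.3% higher. The log2 fold changes of male over female for the other 8 genes, PER3 included, lay between -0.24 for PER3 and 0.15 for CRY1, and 2 of the 10 genes had an unadjusted p under 0.05 (limma), against 11% of all tested genes. Both other PAR bZIP activators, named after their values were seen, were lower in the male libraries as well. TEF was at 25.3 and 23.9 in the mid and early anagen male libraries, against 32.1 and 29.4 in the mid and early anagen female libraries. HLF was at 1.22 and 0.799 in the mid and early anagen male libraries, against 1.92 and 1.34 in the mid and early anagen female libraries. Neither passed (limma adjusted p = 0.531 and 0.554), and both overlapped between sexes after rescaling to a common total.

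**Figure D4:**
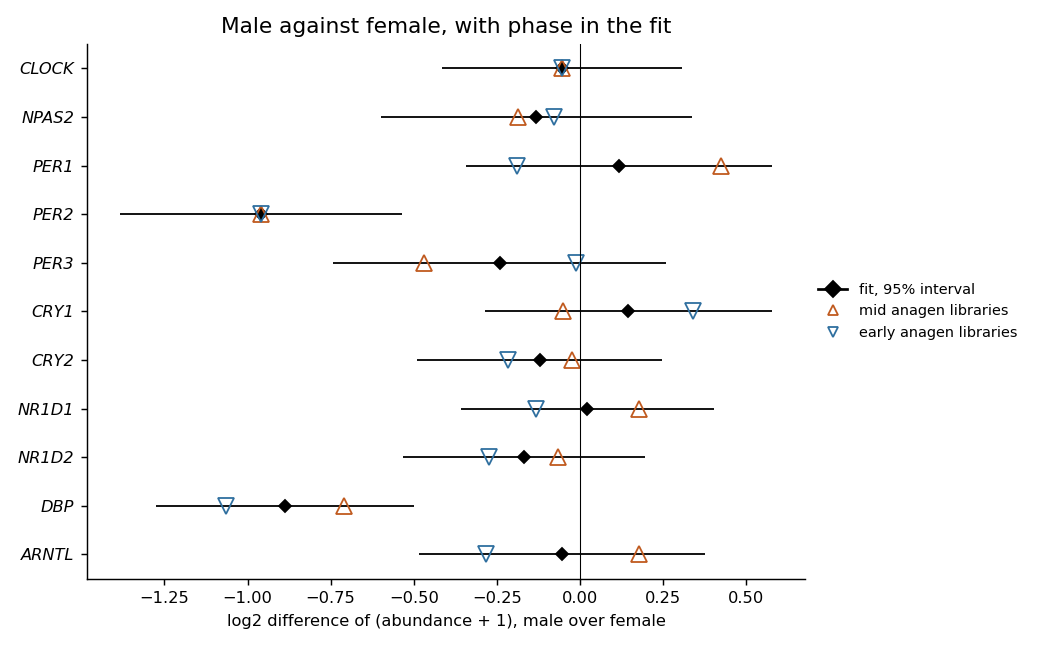
Log2 difference of abundance + 1, male over female (horizontal axis), for the 10 clock genes and ARNTL. Diamonds with 95% intervals are from the fit with phase as a term, upward triangles the mid anagen libraries and downward triangles the early anagen libraries. PER2 and DBP lie near -0.96 and -0.89 with both triangles on the same side.

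FKBP5 and TSC22D3, steroid-induced genes of the fixed lists that were singled out after their values were seen, differed between male and female libraries in opposite directions. FKBP5 was at 49.9 and 75.7 in the mid and early anagen male libraries, against 22.7 and 28.9 in the mid and early anagen female libraries (log2 fold change 1.23, limma adjusted p = 0.0549). TSC22D3 was at 11.7 and 6.06 in the mid and early anagen male libraries, against 24.1 and 13.1 in the mid and early anagen female libraries (log2 fold change -0.99, adjusted p = 0.0679). Neither passed, the TSC22D3 libraries overlapped between sexes after rescaling, and KLF9, also induced by glucocorticoids, overlapped between sexes (adjusted p = 0.636). DUSP1, of the same list as FKBP5, was at 208 and 135 in the mid and early anagen male libraries, against 121 and 81.8 in the female ones. It did not pass (limma adjusted p = 0.188) and overlapped between sexes after rescaling. Of the 20 tested genes of that list, 6 were higher and 2 lower in both male libraries, against 12.3% and 11.9% of all tested genes. The part of these genes in the PER2 and DBP values was not tested.

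Genes around the core were counted in 5 lists, and limma called 0 of them in any list. Over all tested genes, 31.5% were higher and 30.9% lower at mid anagen without overlap and 27.9% had an unadjusted p under 0.05, and the counts of each list are set beside these shares. The list of partners and other loop factors held 11 genes, of which 10 were tested and RORB was under the filter. It had 3 genes higher and 1 lower without overlap at mid anagen, 3 with an unadjusted p under 0.05 and a median log2 fold change of 0.29. NFIL3, which represses through the sites that DBP activates, was at 60.8 and 38.7 in the mid anagen female and male, against 22.5 and 25.4 in the early anagen female and male (log2 fold change 0.99, SE 0.24, adjusted p = 0.0862). RORA, a nuclear receptor that activates ARNTL and so opposes the REV-ERB receptors, was at 3.69 and 1.55 in the mid anagen female and male, against 1.18 and 0.488 in the early anagen female and male (log2 fold change 0.94, SE 0.37, adjusted p = 0.174). RORA and NFIL3 were thus higher in both mid anagen libraries under either scaling, while ARNTL was lower only as deposited, and none of these differences passed.

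The list of kinases, phosphatases and ubiquitin ligases that act on clock proteins held 24 genes, of which 22 were tested, with 5 higher and 4 lower without overlap, 3 with an unadjusted p under 0.05 and a median log2 fold change of 0.05. USP2, a deubiquitinase that is itself a clock output, was at 8.63 and 10.5 in the mid anagen female and male, against 4.55 and 4.12 in the early anagen female and male (log2 fold change 0.98, limma adjusted p = 0.0724). PPP1CC, a catalytic subunit of protein phosphatase 1, was at 85.8 and 78.0 in the mid anagen female and male, against 127 and 163 in the early anagen female and male (log2 fold change -0.81, adjusted p = 0.0848). BTRC, the ligase subunit that marks PER proteins for breakdown, was at 12.3 and 11.8 in the mid anagen female and male, against 9.47 and 8.91 in the early anagen female and male. CSNK1D, a kinase of the PER proteins, overlapped between phases, at 96.5 and 95.3 in the mid anagen female and male and 91.1 and 104 in the early anagen female and male, and was named after its values were seen.

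Among 19 cofactors, 18 were tested, with 8 higher and 5 lower without overlap, 4 with an unadjusted p under 0.05 and a median log2 fold change of 0.04. TIMELESS, which in mammals acts chiefly at the replication fork, was at 5.86 and 9.14 in the mid anagen female and male, against 14.7 and 17.3 in the early anagen female and male (log2 fold change -1.02, limma adjusted p = 0.0835). The histone acetyltransferase EP300 was at 27.1 and 30.5 in the mid anagen female and male, against 21.0 and 18.1 in the early anagen female and male, and the histone methyltransferase KMT2A at 10.3 and 11.4 in the mid anagen female and male, against 7.57 and 6.40 in the early anagen female and male. Both were higher at mid anagen without overlap and did not pass, with adjusted p-values of 0.112 and 0.104.

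Of 20 output genes, 18 were tested, with 7 higher and 5 lower without overlap, 5 with an unadjusted p under 0.05 and a median log2 fold change of 0.10. AQP3, a water and glycerol channel of the epidermis, had the smallest p, at 0.939 and 1.35 in the mid anagen female and male against 8.18 and 5.36 in the early anagen female and male (log2 fold change -1.84, SE 0.25, limma adjusted p = 0.0625). KLF9, a factor induced by glucocorticoids and the clock that restrains keratinocyte growth, was at 5.57 and 5.31 in the mid anagen female and male, against 2.04 and 0.974 in the early anagen female and male (log2 fold change 1.40, adjusted p = 0.0726). USP2, given above, belongs to this list too. The output genes that differed most thus pointed both ways.

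The list of steroid, cAMP and serum signalling held 21 genes, some of which, such as FKBP5, are induced by these signals. Of these genes 20 were tested, with 10 higher and 1 lower without overlap, 9 with an unadjusted p under 0.05 and a median log2 fold change of 0.28. EGR1, an immediate early factor, was at 122 and 151 in the mid anagen female and male, against 80.0 and 69.3 in the early anagen female and male (log2 fold change 0.86, limma adjusted p = 0.0795). FOS was at 217 and 278 in the mid anagen female and male, against 132 and 152 in the early anagen female and male (log2 fold change 0.79, adjusted p = 0.0935). In EGR1 and FOS, as in PER1, the mid anagen male was the highest library. ATF5, a stress-responsive bZIP factor, was at 389 and 229 in the mid anagen female and male, against 112 and 63.2 in the early anagen female and male (log2 fold change 1.81, adjusted p = 0.0778). The part of these genes, or of the signals, in the PER1 values was not tested.

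**Figure D5:**
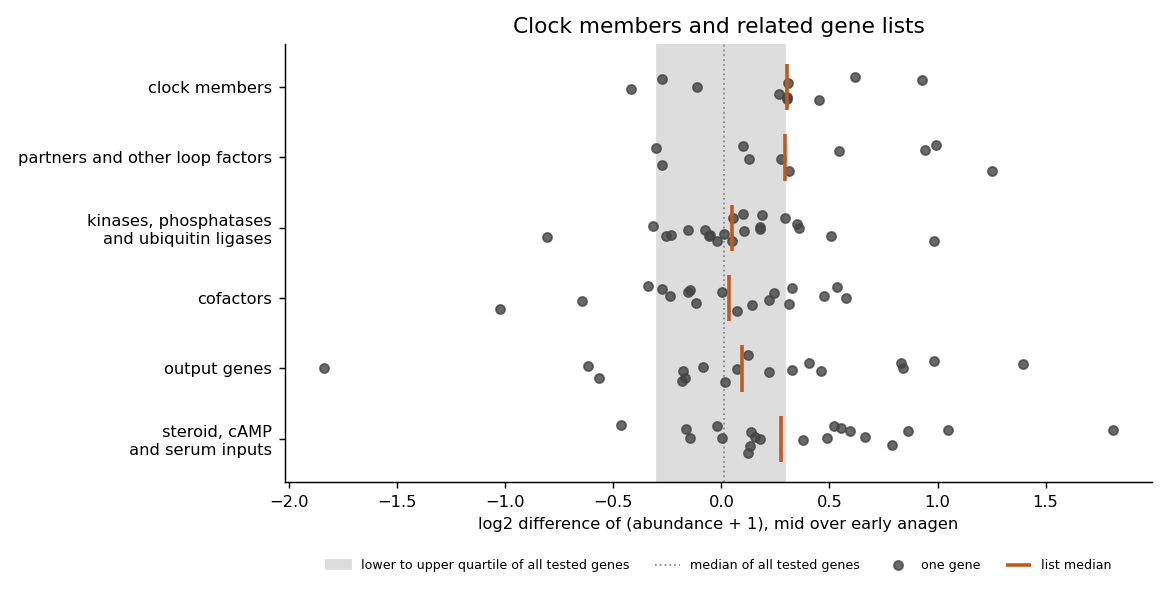
Log2 difference of abundance + 1, mid over early anagen (horizontal axis), for each tested gene of the clock members and of 5 related lists. Points are genes, orange bars list medians, the grey band the lower to the upper quartile of all tested genes and the dotted line their median. The medians of the clock members (0.30), of the partners (0.29) and of the steroid, cAMP and serum genes (0.28) lie near the upper edge of the band.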

How the data were processed

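RNA-seq of 4 libraries was analysed from tables with 1 value per gene. The deposited values are a signal and not a count, and are taken here as a length-normalised abundance. The submitters' processing notes list kallisto 0.46.1 and sleuth 0.30.0 without their roles. The build, the annotation and the scaling between libraries are not stated there. Read depth is unknown, so no counting interval is given, and low values did not yield relative depth for all libraries. With R 4.3.3 and limma 3.58.1, genes with at least 1 in at least 2 libraries (12486) were fitted as log2(value + 1) with an intensity trend, with phase alone or, for sex, with phase and sex, and adjusted by Benjamini-Hochberg at 0.05. On this scale low genes show smaller fold changes than their values would give. The fit was tested on simulated data. The members and lists were chosen with earlier results of these data known. All 10 members are named, with ARNTL and the 3 genes of each list with the smallest p, of which 1 is not reported here. Of the gene identifiers, 20294 were in the RefSeq table of assembly ARS1.2, used for spans. Alternatives covered pseudocounts, filters, left-out libraries, the sex term, the trend, scaling and span.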

Additional observations from a re-analysis of the deposited data

Results flagged for a closer look

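PER3 went in opposite directions in the 2 sexes, with a log2 difference of mid over early anagen of -0.34 between the male libraries and 0.12 between the female libraries. The log2 difference of male over female changed sign between phases for 4 genes. It was 0.43 at mid and -0.19 at early anagen for PER1, and -0.0497 at mid and 0.34 at early anagen for CRY1. For NR1D1 it was 0.18 at mid and -0.13 at early anagen, and for ARNTL 0.18 at mid and -0.28 at early anagen. Each of these rests on 1 library per sex and phase, and the difference between sexes or phases was not tested.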

How the results depend on the processing

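Among the 4 libraries, limma calls between phases numbered 38 as deposited, 18 with a pseudocount of 0.1, 0 with no filter (3843 at an unadjusted p under 0.05), 648 after rescaling to a common total and 1782 with a replicate block, that is with sex as a second term. Leaving out 1 library gave 0 to 733 calls, namely 0 without the early anagen female and 0 without the early anagen male (2897 and 1445 at an unadjusted p under 0.05), 733 without the mid anagen female and 370 without the mid anagen male. In these fits the lone library of a phase is assumed to vary like the others. Of the 10 clock genes 0 were called as deposited, 1 (PER1) after rescaling, 1 (PER1, adjusted p = 0.0315) with the replicate block, where 14.3% of all tested genes were called and the unadjusted p of DBP was 0.0291 (0.316 without it), and 0 to 1 when leaving out 1 library. The replicate number is the sex, and nothing in the labels ties libraries of a number together. The female minus male differences of the 2 phases correlated at 0.29 across genes.

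The sign changed for NR1D1 (0.046) and PER3 (0.10) after rescaling, which moved the median of all tested genes to 0.32 from 0.01, and both stayed below that median. When leaving out 1 library the log2 fold change ran from -0.21 to 0.75 for PER2, -0.081 to 0.98 for DBP and -0.35 to 0.12 for PER3. With the span trend removed it was -0.16 for NR1D1, -0.25 for PER3, -0.51 for ARNTL and -0.60 for CRY1. With a pseudocount of 5 it was 0.13 for PER2, -0.25 for CRY1 and -0.042 for PER3. Calls between sexes numbered 18 as deposited, 46 and 48 with pseudocounts of 0.1 and 5, 0 with no filter (1504 at an unadjusted p under 0.05), 101 with a filter of 5, 9 without the intensity trend, 396 after rescaling, 10 with the span trend removed and 1 with sex as the only term. The cause was not tested. Leaving out a library leaves the fit with phase and sex no residual degrees of freedom, and it could not be made.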
